A study of Mus musculus with 12 samples.

Results

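The comparison described here was the loss of APC in mouse MC38 tumours that had received doxycycline (Dox): the 3 APC-KO Dox tumours minus the 3 APC-WT Dox tumours, 6 of the 12 arrays of the series. Its members were all genes with a probe set annotated to a single symbol, 18193 in all. Of these, 11070 had a mean log2 signal of at least 5.55 over the 12 arrays and were tested, and 7123 lay below that floor. The floor is the median over all probe sets that are not array controls; it is a filter and not a measured background.

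MC38 is a mouse colon cancer line, and both genotypes carried an inducible short hairpin against Tdo2, the enzyme that opens the tryptophan ring in the first step of the kynurenine pathway. Cells had been placed in the cecum of C57BL/6 mice, RNA of the tumours had been hybridised to Affymetrix arrays, and 3 tumours stood in each of 4 groups. The APC-WT Dox and APC-KO Dox mice drank Dox to switch the hairpin on, and the APC-WT no Dox and APC-KO no Dox groups carried the same hairpin without Dox. Thus both groups compared carried hairpin and Dox, and they differed by the labelled APC genotype. The series text speaks of cell lines where the sample labels speak of tumours. The sources used here do not give the deleted part of Apc, the age or number of mice, or whether the APC-KO line is 1 clone. Nor do the labels state separate mice for the 3 tumours within each group. P-values then measure only how these samples vary, and that variation may be technical. A tumour holds host cells as well as MC38 cells. In such bulk RNA, fewer cells of a type and less RNA per cell cannot be told apart.

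Apc encodes the scaffold of the complex that marks beta-catenin for destruction. When Wnt ligands bind Frizzled receptors, or when the scaffold is lost, beta-catenin can build up and switch on genes with TCF and LEF factors, among them feedback inhibitors such as Axin2. Mutation of this gene is a common early step in colorectal cancer.

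Array medians lay between 5.54 and 5.58, and correlations between arrays of a group between 0.995 and 0.998. The probe set against the middle of 18S ribosomal RNA overlapped between APC-WT Dox and APC-KO Dox tumours. Without Dox it read 9.59, 9.46 and 9.58 in APC-WT tumours and 9.80, 10.16 and 9.89 in APC-KO tumours, with no overlap. The log2 difference between 3' and 5' probe sets of Gapdh was -0.19, -0.16 and -0.16 in APC-WT Dox tumours and -0.16, -0.12 and -0.11 in APC-KO Dox tumours. For Actb it was 0.19, 0.18 and 0.17 against 0.19, 0.23 and 0.28. Both were higher in every APC-KO Dox array, by small amounts, and their part in the results was not tested.

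Apc itself was measured by 4 probe sets, and they differed in how far they fell. The one with the largest fall read 7.70, 7.78 and 7.73 in APC-WT Dox tumours and 6.74, 6.83 and 6.81 in APC-KO Dox tumours, a log2 difference of -0.94 ± 0.09 (SE, adjusted p = 3.08e-06 over all probe sets). The brightest, which stands for the gene in all counts, read 8.45, 8.50 and 8.53 against 8.19, 8.32 and 8.25, a fall of 0.24 ± 0.07 (adjusted p = 0.022 over genes and 0.0443 over all probe sets). The third read 6.28, 6.32 and 6.34 against 5.82, 5.86 and 5.78 (-0.49 ± 0.11, adjusted p = 0.00647 over all probe sets), and the fourth had a mean of 3.13, below the floor. In each of the 3 probe sets above the floor, the groups did not overlap and APC-KO Dox tumours were lower. The call on the brightest probe set was lost when APC-WT Dox 2 or 3, or APC-KO Dox 1 or 3, was left out (adjusted p up to 0.0872). Without Dox the first of these probe sets differed by -0.84 (adjusted p = 1.02e-05 over all probe sets), the third by -0.41 (adjusted p = 0.0187) and the brightest by -0.10 (adjusted p = 0.416). Where these probe sets lie relative to the deleted part was not tested. All 3 probe sets of Tdo2 had means below the floor (2.59, 3.12 and 3.85), and the brightest differed by 0.07 ± 0.11 (adjusted p = 0.759 over all probe sets), so the hairpin's target could not be followed here.

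Across the genome, 2205 of the 11070 tested genes differed at an adjusted p under 0.05 (19.9%), 1320 higher in APC-KO Dox tumours (11.9%) and 885 lower (7.99%). Most differences were small. The median size over the called genes was 0.34 on the log2 scale, against 0.12 over all tested genes, and 116 called genes differed at least 2-fold, 67 higher and 49 lower. At an unadjusted p under 0.05 there were 3629 genes. The 2 groups did not overlap in 4581 tested genes, 41.4% of them, and in 2170 of the 2205 called. The count of calls rested partly on single arrays: it was 1291 without APC-WT Dox 3, 1334 without APC-WT Dox 2 and 1451 without APC-KO Dox 3.

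**Figure D1:**
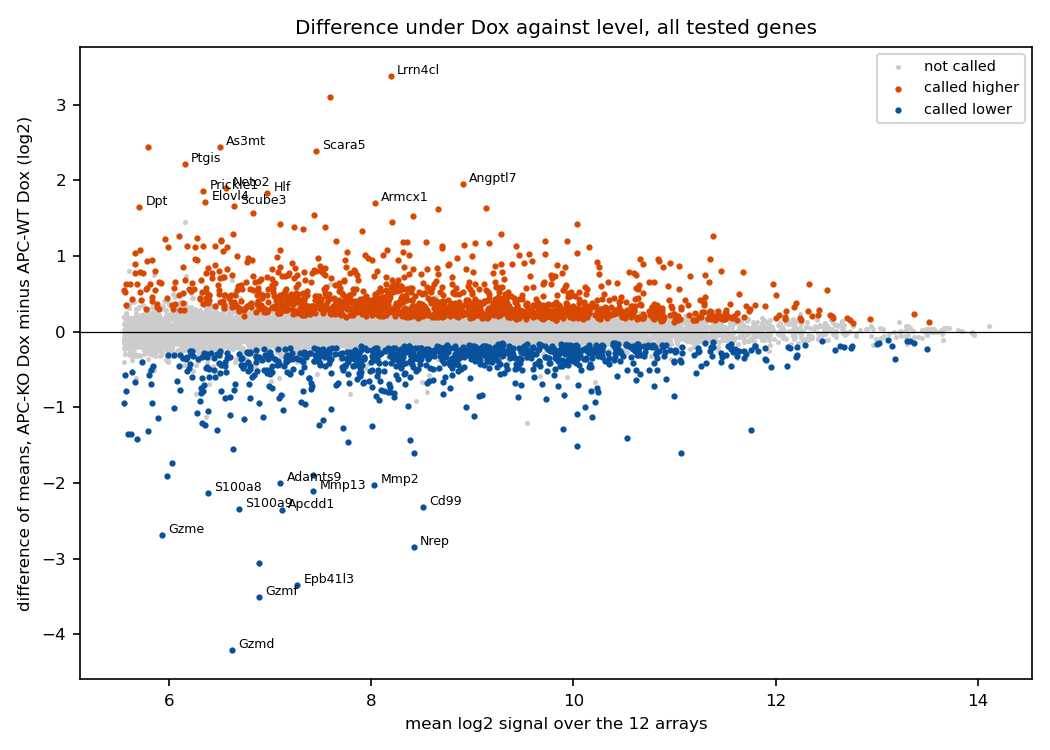
Log2 difference between APC-KO Dox and APC-WT Dox tumours (vertical axis) against the mean log2 signal over the 12 arrays (horizontal axis), 1 point per tested gene, with the 1320 genes called higher and the 885 called lower in colour. The labelled genes are the 12 largest rises and the 12 largest falls among called genes whose groups did not overlap. Large differences occur at low and middle signals, and most called genes lie within 1 log2 unit of 0.

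The 12 genes with the largest rise and the 12 with the largest fall, among called genes whose groups of 3 arrays did not overlap, are described next. Clones without a gene name were left out.

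The largest rise was in Lrrn4cl. This membrane protein with a fibronectin domain read 6.14, 6.49 and 6.39 in APC-WT Dox tumours and 9.23, 9.57 and 10.35 in APC-KO Dox tumours. All 3 APC-KO Dox tumours were far above the others, a 10.4-fold difference (3.38 ± 0.22, adjusted p = 3.28e-07). Scara5, a scavenger receptor that takes up ferritin, read 6.54, 6.33 and 6.15 against 8.49, 8.70 and 8.98, which is 5.22-fold (2.38 ± 0.16, adjusted p = 4.9e-07). With all its probe sets averaged, the Scara5 difference was 1.29. Neto2, an auxiliary subunit of kainate receptors, read 6.05, 5.15 and 5.21 against 7.65, 6.29 and 8.18 (1.90 ± 0.36, adjusted p = 0.00234). Its groups came close, since APC-KO Dox 2 lay just above APC-WT Dox 1.

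Angptl7, an angiopoietin-like secreted factor, read 7.29, 7.67 and 8.05 in APC-WT Dox tumours against 9.62, 9.93 and 9.31 (1.96 ± 0.24, adjusted p = 7.52e-05). Scube3, a secreted protein with EGF repeats, read 5.83, 5.88 and 5.56 against 7.12, 7.46 and 7.65 (1.66 ± 0.19, adjusted p = 3.93e-05). For both genes every APC-KO Dox tumour was more than 1 log2 unit above every APC-WT Dox tumour. Dpt, or dermatopontin, a matrix protein of fibroblasts, read 4.53, 5.11 and 5.12 against 6.11, 6.33 and 7.25. All 3 APC-WT Dox values lay under the floor, so its rise is given as a bound of at least 2.01-fold (adjusted p = 0.0018). Such a bound sets the mean of the brighter group against the floor and leaves out the spread between tumours.

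Of the enzymes, As3mt, which methylates arsenic, read 5.70, 5.23 and 5.02 against 7.82, 7.72 and 7.73 (2.44 ± 0.19, adjusted p = 1.47e-06). Ptgis, the synthase of prostacyclin, read 5.01, 5.13 and 4.97 against 7.28, 7.04 and 7.45, at least 3.26-fold (adjusted p = 1.05e-07). Elovl4, which extends very long fatty acids, read 5.92, 4.98 and 5.32 against 7.08, 6.98 and 7.29 (1.71 ± 0.20, adjusted p = 5.81e-05). In all 3 genes the APC-KO Dox tumours were close to one another, and some or all APC-WT Dox tumours lay under the floor. The other rises were in Hlf, a circadian PAR-bZIP transcription factor, Prickle1, a planar cell polarity protein of non-canonical Wnt signalling, and Armcx1, a mitochondrial outer membrane protein encoded on X. Hlf rose by 1.83 ± 0.14 (adjusted p = 1.39e-06). Prickle1 rose at least 2.89-fold (adjusted p = 1.4e-06). Armcx1 rose by 1.69 ± 0.12 (adjusted p = 8.94e-07).

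**Figure D2:**
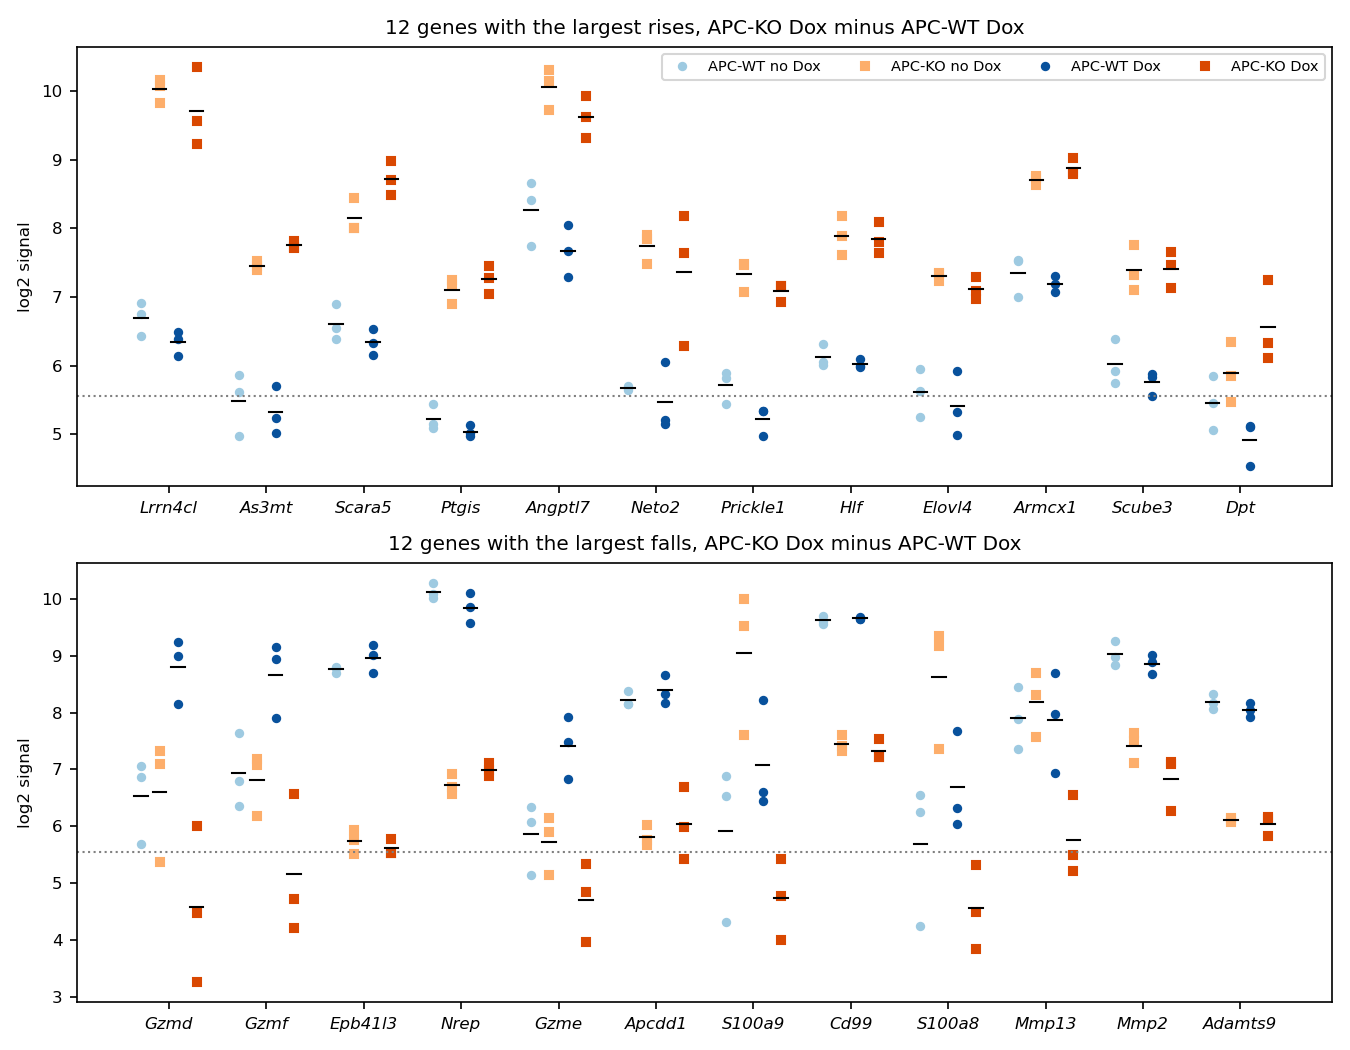
Log2 signal (vertical axis) of the 12 genes with the largest rises and the 12 with the largest falls in APC-KO Dox against APC-WT Dox tumours, with 1 point per array, a bar at each group mean and a dotted line at the floor of 5.55. The pale points are the tumours without Dox; Lrrn4cl, Epb41l3, Nrep and Cd99 are split by genotype there as well, whereas Gzmd, Gzmf and Gzme are not.

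Gzmd and Gzmf had the 2 largest falls, and Gzme was also among the 12; all 3 are granzymes, serine proteases that cytotoxic lymphocytes store in granules. Gzmd read 9.00, 8.14 and 9.23 in APC-WT Dox tumours and 4.48, 6.00 and 3.26 in APC-KO Dox tumours (-4.21 ± 0.62, adjusted p = 0.000393). Gzmf read 8.94, 7.91 and 9.15 against 4.72, 6.56 and 4.22 (-3.50 ± 0.52, adjusted p = 0.000393). Gzme read 7.49, 6.82 and 7.92 against 4.85, 5.33 and 3.97, at least 3.62-fold lower (adjusted p = 0.000286). The groups were wide apart in each gene, with APC-KO Dox 2 the highest of its group and APC-WT Dox 2 the lowest of its own. These are related genes on chromosome 14. Whether their probe sets share signal was not tested, so the 3 falls are not taken as independent. The 250 bases before each start site, from RefSeq on GRCm38.p6, are printed to show how far the copies are alike there, with no letters set apart:

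Gzmd, chr14:56132594-56132843, minus strand: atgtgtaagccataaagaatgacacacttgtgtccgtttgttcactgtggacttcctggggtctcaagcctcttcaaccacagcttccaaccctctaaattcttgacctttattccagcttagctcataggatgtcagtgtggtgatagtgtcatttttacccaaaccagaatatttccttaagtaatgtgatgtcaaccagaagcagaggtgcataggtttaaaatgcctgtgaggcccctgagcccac
Gzme, chr14:56120626-56120875, minus strand: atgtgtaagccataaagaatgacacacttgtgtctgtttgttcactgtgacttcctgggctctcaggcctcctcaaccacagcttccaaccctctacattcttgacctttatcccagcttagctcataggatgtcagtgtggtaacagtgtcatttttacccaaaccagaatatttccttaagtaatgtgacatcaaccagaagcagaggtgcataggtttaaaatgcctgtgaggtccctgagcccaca
Gzmf, chr14:56211408-56211657, minus strand: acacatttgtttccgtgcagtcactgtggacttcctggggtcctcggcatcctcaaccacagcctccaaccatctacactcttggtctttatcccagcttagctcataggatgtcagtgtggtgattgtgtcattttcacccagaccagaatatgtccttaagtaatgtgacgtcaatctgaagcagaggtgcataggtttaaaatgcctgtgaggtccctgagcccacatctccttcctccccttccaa

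The first pair was identical at 94.8% of aligned bases, Gzmd and Gzmf at 74.5% and Gzme and Gzmf at 74.9%. The better known granzymes differed less: Gzma by -0.61 (adjusted p = 0.12), Gzmb by -0.67 (adjusted p = 0.12) and Gzmc by -0.82 (adjusted p = 0.25), and none of these passed.

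The 12 falls also included the extracellular proteases Mmp2, Mmp13 and Adamts9. Mmp2, gelatinase A, read 8.68, 9.00 and 8.88 against 7.09, 7.13 and 6.26 (-2.02 ± 0.20, adjusted p = 1.32e-05). Mmp13, a collagenase, read 6.93, 7.97 and 8.70 against 6.55, 5.503 and 5.23 (-2.11 ± 0.43, adjusted p = 0.00419). Adamts9, a proteoglycan-cleaving protease, read 8.05, 7.93 and 8.17 against 6.16, 5.84 and 6.14 (-2.00 ± 0.10, adjusted p = 3.1e-08). Mmp2 and Adamts9 separated the groups by more than 1.5 log2 units, whereas for Mmp13 the nearest tumours were 0.38 apart. Mmp12, the macrophage elastase, differed by -3.05 ± 0.82 (adjusted p = 0.0183) with overlapping groups, and is named after its values were seen.

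Epb41l3, a 4.1-family membrane skeleton protein, read 9.19, 9.01 and 8.70 against 5.77, 5.54 and 5.53 (-3.35 ± 0.12, adjusted p = 2.14e-09). Cd99, a small surface glycoprotein of leukocyte migration, read 9.63, 9.69 and 9.64 against 7.23, 7.54 and 7.23 (-2.32 ± 0.09, adjusted p = 2.18e-09). Tumours of a group differed little from one another here, and the adjusted p-values were among the smallest of the comparison. Apcdd1, a membrane inhibitor of Wnt signalling that is itself a beta-catenin target, read 8.66, 8.33 and 8.18 against 5.99, 6.69 and 5.43 (-2.35 ± 0.23, adjusted p = 1.06e-05). It fell in all 4 of its probe sets above the floor. With all probe sets averaged, the difference was -2.21 for Epb41l3 and -1.48 for Apcdd1. Nrep, a neuronal regeneration-related protein whose gene lies close to Apc, read 10.09, 9.85 and 9.57 against 6.98, 7.12 and 6.88, 7.2-fold lower (-2.85 ± 0.12, adjusted p = 7.73e-09).

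S100a8 and S100a9, the subunits of calprotectin in neutrophils, completed the falls. S100a9 read 6.61, 6.44 and 8.21 against 4.78, 5.42 and 4.01, at least 2.90-fold lower (adjusted p = 0.03). S100a8 read 6.32, 6.05 and 7.68 against 4.50, 5.32 and 3.86, at least 2.19-fold lower (adjusted p = 0.0306). In both genes APC-WT Dox 3 was far above the other tumours of its group. Both calls were lost without APC-WT Dox 3, APC-KO Dox 1 or APC-KO Dox 3, with adjusted p up to 0.139 for S100a9 and 0.141 for S100a8.

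The same genotypes without Dox gave a second difference, taken between 6 other tumours, although all 12 arrays share the floor and the estimate of spread. There 1525 genes were higher in APC-KO (13.8%) and 1228 lower (11.1%). Of the 2205 genes called with Dox, 2086 had the same sign without Dox (94.6%), and 1355 were called in the same direction, 61.5% of the calls with Dox and 49.2% of those without. Across the called genes the 2 differences had a Pearson correlation of 0.805, a description over 2205 genes that share arrays. Of the 116 genes with at least 2-fold differences, 108 kept the sign and 93 the call.

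Many of the largest differences were close in size in both settings. Lrrn4cl differed by 3.33 without Dox, Epb41l3 by -3.03, Nrep by -3.39, Cd99 by -2.17, Apcdd1 by -2.41 and Adamts9 by -2.08, and each passed. Ptgis (at least 2.93-fold), As3mt (1.97), Scara5 (1.55), Hlf (1.76) and Armcx1 (1.35) passed as well. Other genes separated the genotypes with Dox and gave values near 0 without it. Gzmd differed by 0.06 without Dox (adjusted p = 0.955), Gzmf by -0.12 (adjusted p = 0.895), Gzme by -0.13 (adjusted p = 0.844), Mmp13 by 0.29 (adjusted p = 0.676) and Dpt by 0.43 (adjusted p = 0.311). S100a9 and S100a8 were higher in APC-KO tumours without Dox, by 3.13 (adjusted p = 0.00574) and 2.94 (adjusted p = 0.00473). Cxcl2, a neutrophil chemokine, and Arhgap11a were the other genes called in opposite directions, 4 in all.

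No difference between the settings passed in its own test. By limma, 0 of 11070 genes had an interaction at an adjusted p under 0.05 (0.0%), and no adjusted p was below 0.129; without adjustment 1312 genes had a p under 0.05. The count was 13 with array weights, 119 without APC-WT no Dox 3 and 1 without APC-KO no Dox 1. Nothing is therefore called particular to Dox. The genes with the smallest p in each direction were Cdh26, Arhgap11a and Frk on one side and S100a8, Slc2a1 and H2ac19 on the other. Cdh26, a cadherin, differed by -0.22 with Dox and by -1.24 without. Frk, a Src-related kinase, differed by 0.56 with Dox (adjusted p = 0.00108) and -0.07 without. Slc2a1, the glucose transporter GLUT1, differed by -0.35 with Dox (adjusted p = 0.101) and 0.76 without (adjusted p = 0.00174). H2ac19, a histone, differed by -0.10 and 0.87.

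**Figure D3:**
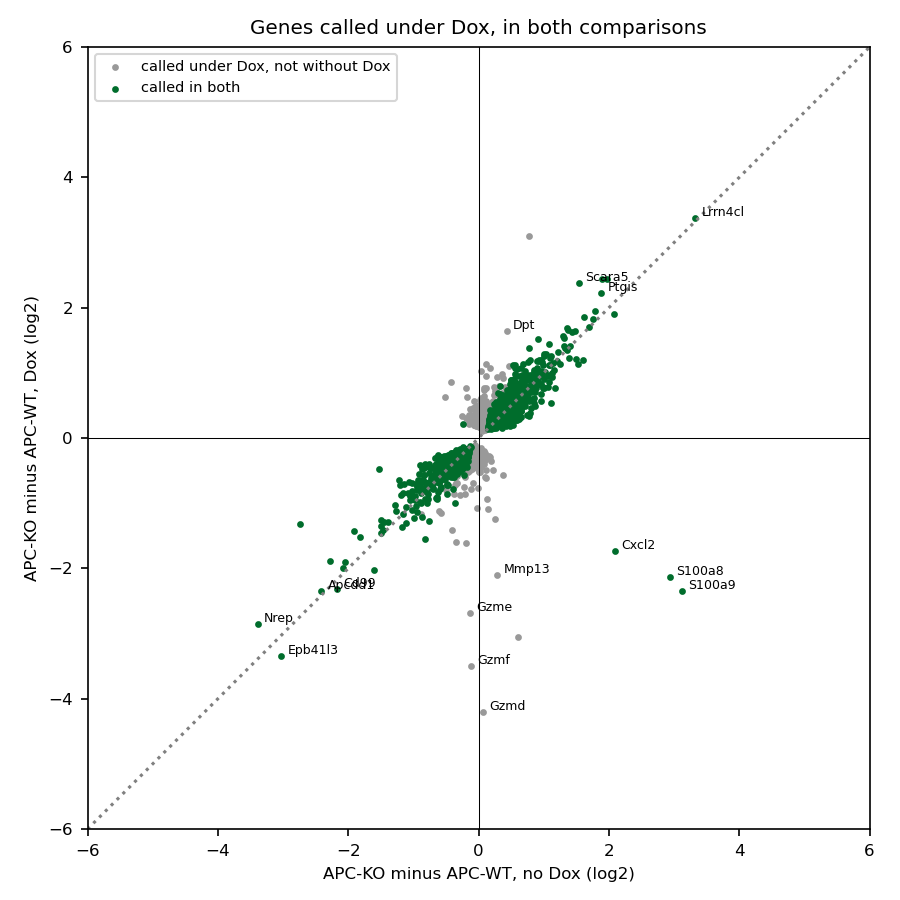
Log2 difference between APC-KO and APC-WT tumours with Dox (vertical axis) against the same difference without Dox (horizontal axis) for the 2205 genes called with Dox, coloured by whether they were called in both; the dotted line marks equal differences. Most points lie near that line, while Gzmd, Gzmf, Gzme and Mmp13 lie near 0 on the horizontal axis and S100a8, S100a9 and Cxcl2 lie on the opposite side.

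Gene groups were described by how many tested members passed in each direction. They are to be read against 11.9% of all tested genes higher, 7.99% lower and a median difference of 0.01, and the lists were not tested as sets. With the higher floor of 7.81, which leaves fewer genes tested, 4 cytokines and chemokines, 1 checkpoint gene and 2 natural killer cell and granzyme genes were called lower, and 2 endothelial markers higher. With array weights 9 hypoxia genes were called lower, and 15 cell cycle and 10 matrix genes higher.

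Genes of the Wnt pathway changed in a few members, in both directions. Of 21 tested beta-catenin target and feedback genes, 2 rose and 3 fell, with a median of -0.03. Dkk2, a secreted Wnt modulator, read 8.68, 8.81 and 8.55 against 9.82, 9.81 and 9.79 (1.13 ± 0.12, adjusted p = 2.05e-05). Lef1, a DNA-binding partner of beta-catenin, read 6.76, 6.75 and 6.82 against 7.18, 7.19 and 7.40 (0.48 ± 0.09, adjusted p = 0.00244). Both rose in every APC-KO Dox tumour, and both passed without Dox as well (1.10 and 0.39). Besides Apcdd1, the falls were in Ccnd1, cyclin D1, by 0.22 ± 0.04 (adjusted p = 0.00258), and in Sox4, a transcription factor, by 0.30 ± 0.09 (adjusted p = 0.0252). The Sox4 call was lost without APC-WT Dox 2 or 3 or APC-KO Dox 1 or 3 (adjusted p up to 0.116), and with its probe sets averaged (adjusted p = 0.0547). Axin2, the feedback inhibitor often used as a readout of beta-catenin, read 6.43, 6.38 and 6.26 against 6.23, 6.56 and 6.36, with overlapping groups (0.02 ± 0.12, adjusted p = 0.925). Myc differed by 0.07 (adjusted p = 0.67), and Nkd1 and Notum lay below the floor.

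Upstream, 5 of 21 Wnt ligands and receptors rose and 1 fell. Wnt5a, a ligand of non-canonical signalling, read 8.36, 7.89 and 7.29 against 9.38, 9.36 and 9.66 (1.62 ± 0.20, adjusted p = 6.94e-05). Wnt7b, a canonical ligand, read 9.37, 9.35 and 9.21 against 8.48, 8.29 and 8.18 (-0.99 ± 0.11, adjusted p = 2.68e-05). The 2 ligands thus moved in opposite directions with no overlap, and without Dox they differed by 1.44 and -0.35. The 4 other rises were Frizzled receptors: Fzd8 by 0.95 ± 0.13, Fzd5 by 0.72 ± 0.09, Fzd4 by 0.32 and Fzd6 by 0.27. With all probe sets of a gene averaged, the calls on Fzd5 (0.25, adjusted p = 0.0556) and Fzd6 (0.11, adjusted p = 0.256) were lost, and 1 of the 5 rises in the list was left. Genes whose averaged signal lay under the floor were not tested in that fit, and neither Fzd8 nor Fzd4 was tested and lost there. The Fzd4 call was lost without APC-WT Dox 2 or 3 or APC-KO Dox 2 or 3 (adjusted p up to 0.15). In the destruction complex and the partners of beta-catenin, 3 of 27 rose and 4 fell, and 2 fell without APC-WT Dox 2, APC-WT Dox 3 or APC-KO Dox 1. Apc itself was among the 4 falls. Dvl1, the adaptor below Frizzled, fell by 0.36 ± 0.05 (adjusted p = 0.000178). Tnks, the tankyrase that marks Axin for breakdown, rose by 0.32 ± 0.06 (adjusted p = 0.0036) in the brighter of its 2 probe sets above the floor. The other probe set did not have this sign. Ctnnb1, beta-catenin itself, differed by -0.04 (adjusted p = 0.49). The TCF/LEF core CTTTGAT, searched on both strands, lies in 3.21% of all 250-base windows before RefSeq starts. It was absent from these windows of the called Wnt-list genes that had one in the table (3 of the targets and feedback genes, 2 of the risen ligands and receptors), which says only that these letters are not there.

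The tryptophan and aryl hydrocarbon receptor genes were mostly low or not called. Of 8 tested tryptophan and kynurenine genes, Kyat3, a kynurenine aminotransferase, rose by 0.45 ± 0.09 (adjusted p = 0.00396), and the others did not pass. Ahr, the receptor itself, read 8.26, 8.54 and 8.29 against 8.81, 8.61 and 8.90 (0.41 ± 0.11, adjusted p = 0.0164). The Ahr call was lost without APC-WT Dox 1, APC-WT Dox 3 or APC-KO Dox 3 (adjusted p up to 0.075). Nqo1, a quinone reductase, read 7.19, 7.04 and 7.00 against 8.19, 8.15 and 8.49 (1.20 ± 0.11, adjusted p = 5.15e-06). These were the called members of the 5 tested genes of the receptor and its targets.

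Of 8 tested T cell markers, 6 fell and none rose, with a median of -0.68. Cd3g, a subunit of the T cell receptor complex, read 6.99, 7.59 and 7.54 against 6.99, 5.86 and 6.16 (-1.04 ± 0.23, adjusted p = 0.00694). Cd8b1, a chain of the CD8 co-receptor, read 6.76, 7.17 and 7.23 against 6.61, 5.69 and 6.21 (-0.88 ± 0.20, adjusted p = 0.00634). Cd8a, the other chain, read 6.59, 6.78 and 6.88 against 6.22, 5.55 and 6.13 (-0.78 ± 0.15, adjusted p = 0.00292). In each, APC-KO Dox 1 and APC-WT Dox 1 were the nearest pair, and for Cd3g they were level. Cd3d differed by -0.76 (adjusted p = 0.0317). Cd4, the helper co-receptor, differed by 0.01 (adjusted p = 0.92). The summed log2 level of the 8 markers was 54.1, 56.5 and 57.0 in APC-WT Dox tumours and 54.0, 49.4 and 50.5 in APC-KO Dox tumours. Without APC-WT Dox 2, APC-WT Dox 3, APC-KO Dox 2 or APC-KO Dox 3, 3 of the 6 calls were left. With the higher floor of 7.81 no member was called, because the 6 called markers had means below it and were not tested. Without Dox 5 of the 8 fell, with a median of -0.55.

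In the list of natural killer cell and granzyme genes, 6 of 11 fell and none rose, with a median of -0.67. Besides the 3 granzymes, Prf1, the pore-forming perforin, read 6.42, 6.40 and 6.76 against 5.79, 5.505 and 5.27 (-1.004 ± 0.19, adjusted p = 0.00245). Every APC-KO Dox tumour was below every APC-WT Dox tumour, and Prf1 fell by 0.80 without Dox too (adjusted p = 0.008). Checkpoint genes, which restrain T cells or mark activated ones, had 4 of 17 lower and none higher. Tnfrsf9, the co-stimulatory receptor 4-1BB, differed by -0.78 ± 0.18 (adjusted p = 0.00863). Nt5e, the ectoenzyme CD73, fell by 0.77 ± 0.17 (adjusted p = 0.00629). Lag3, an inhibitory receptor, fell by 0.61 ± 0.11 (adjusted p = 0.00181). Cd274, the ligand PD-L1, differed by -0.53 ± 0.17 (adjusted p = 0.041), a call lost without any one of 6 arrays, among them APC-WT Dox 2 and 3 and APC-KO Dox 2 and 3 (adjusted p up to 0.174).

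Antigen presentation and interferon-stimulated genes were lower in part. Of 19 genes of antigen presentation, 8 fell and none rose, 18 lay below 0, and the median was -0.16. Nlrc5, the transactivator of MHC class I, read 8.88, 9.21 and 9.34 against 8.73, 8.46 and 8.42 (-0.61 ± 0.12, adjusted p = 0.0027). Psmb9, a subunit of the immunoproteasome, read 10.44, 10.73 and 10.75 against 10.27, 10.04 and 9.86 (-0.58 ± 0.10, adjusted p = 0.00151). The groups did not overlap for either gene, and the tumours numbered 1 were nearest to each other. B2m, the light chain of MHC class I, differed by -0.01 (adjusted p = 0.92). Tap1, a subunit of the peptide transporter, read 9.50, 9.69 and 9.79 against 9.53, 9.21 and 9.20 (-0.35 ± 0.11, adjusted p = 0.0404). Its groups overlapped, and the call was lost without APC-WT Dox 2 or 3 or APC-KO Dox 2 or 3 (adjusted p up to 0.162). Without Dox 8 of the 19 fell, with a median of -0.20.

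Among 31 interferon-stimulated genes 6 fell and none rose. Gbp6, a guanylate-binding protein, read 9.10, 9.43 and 9.63 against 8.61, 8.31 and 7.89 (-1.12 ± 0.20, adjusted p = 0.00163). Iigp1, an immunity-related GTPase, read 9.96, 10.48 and 10.68 against 9.64, 9.56 and 8.92 (-1.001 ± 0.21, adjusted p = 0.00461). Gbp2 fell by 0.85 ± 0.15 (adjusted p = 0.00127), and Igtp, a second GTPase of that family, fell by 0.63 ± 0.14 (adjusted p = 0.00725). Irf1, a transcription factor induced by interferon gamma, read 10.94, 11.09 and 11.04 against 10.74, 10.42 and 10.40 (-0.51 ± 0.08, adjusted p = 0.00108). APC-KO Dox 3 was the lowest tumour in each of these, and the median of all 31 was -0.12 with Dox. Without Dox 25 of the 31 fell, with a median of -0.65. The difference between the 2 settings was called in none of the 31.

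The windows of 250 bases before the start sites of several of these genes are shown because Irf1, Gbp2, Igtp and Tap1 were among the lower genes. Capitals mark the interferon gamma-activated site TTCNNNGAA and the interferon-stimulated response element, a pair of GAAA words set apart by any 2 bases, each searched on both strands. Psmb9 and Tap1 are read in opposite directions from overlapping windows; that of Tap1 is printed, without a match. Irf1 had a second window in the table, with no match to either motif, which is not printed:

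Tap1, chr17:34187306-34187555, plus strand: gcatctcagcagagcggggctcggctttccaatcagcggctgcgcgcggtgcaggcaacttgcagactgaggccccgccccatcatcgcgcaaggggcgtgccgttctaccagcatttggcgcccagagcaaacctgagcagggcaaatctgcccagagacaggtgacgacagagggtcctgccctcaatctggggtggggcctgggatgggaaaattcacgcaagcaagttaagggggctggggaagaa
Irf1, chr11:53769764-53770013, plus strand: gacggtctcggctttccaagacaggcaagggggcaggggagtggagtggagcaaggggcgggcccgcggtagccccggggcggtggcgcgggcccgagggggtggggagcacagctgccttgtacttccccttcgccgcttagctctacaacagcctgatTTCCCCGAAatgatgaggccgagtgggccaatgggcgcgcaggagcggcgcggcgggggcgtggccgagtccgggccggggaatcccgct
Gbp2, chr3:142620413-142620662, plus strand: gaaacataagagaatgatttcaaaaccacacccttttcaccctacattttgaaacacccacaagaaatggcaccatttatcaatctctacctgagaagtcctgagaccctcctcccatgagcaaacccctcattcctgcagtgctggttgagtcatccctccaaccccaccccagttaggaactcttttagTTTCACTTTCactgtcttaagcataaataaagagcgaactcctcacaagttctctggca
Igtp, chr11:58199306-58199555, plus strand: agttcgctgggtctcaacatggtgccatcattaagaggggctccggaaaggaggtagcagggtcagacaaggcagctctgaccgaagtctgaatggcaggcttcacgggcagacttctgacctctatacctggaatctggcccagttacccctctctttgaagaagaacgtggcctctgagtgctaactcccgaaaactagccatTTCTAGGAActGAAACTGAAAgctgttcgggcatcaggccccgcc

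The windows come from RefSeq on GRCm38.p6. The first motif lies in 7.02% and the second in 2.98% of all 32851 such windows. Of the 6 interferon-stimulated genes that fell, 3 had a window in the table; the first motif was in 2 of them, Igtp and Irf1 (in 1 of its 2 windows), and the second in 2, Gbp2 and Igtp. Of the 8 lower genes of antigen presentation, 6 had a window, and 1, Psmb8, held the first motif and 0 the second. A match describes these letters and not a bound site.

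Cytokines and chemokines had 8 of 31 lower and 1 higher, with a median of -0.18. Cxcl14, a chemokine of epithelia and fibroblasts, read 5.77, 5.91 and 6.25 against 5.30, 4.88 and 4.93, at least 1.34-fold lower (adjusted p = 0.000971). Ccl3, a chemokine of macrophages and T cells, read 5.82, 6.52 and 7.04 against 5.79, 5.58 and 4.77 (-1.08 ± 0.28, adjusted p = 0.0143). Cxcl2 read 5.72, 5.18 and 7.34 against 5.22, 3.70 and 4.10 and overlapped (adjusted p = 0.0384); with all 3 APC-KO Dox values and 1 APC-WT Dox value under the floor, no fold is given. Ccl2, the monocyte chemokine, was the one rise, by 0.27 ± 0.09 (adjusted p = 0.0471). APC-WT Dox 3 was the highest tumour for Cxcl14, Ccl3 and Cxcl2. Of the 8 lower calls, 1 was left without APC-WT Dox 3 or APC-KO Dox 3, and 2 without APC-WT Dox 2 or APC-KO Dox 2. Without a trend in the variances 4 were left, and 4 with a floor of 7.81, which leaves fewer genes tested. The calls on Ccl3 and Cxcl2 were lost without single arrays (adjusted p up to 0.0737 and 0.177), and that on Ccl2 without any one of 9 arrays (up to 0.151).

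Markers of other host cells gave a mixed picture. Macrophage markers had 2 of 17 higher and 2 lower, with a median of -0.01. Arg1, the arginase of wound-type macrophages, read 10.15, 10.91 and 11.39 against 10.06, 8.93 and 9.24 (-1.41 ± 0.32, adjusted p = 0.00807). Gpnmb, a lysosomal glycoprotein, read 7.26, 8.11 and 8.03 against 8.74, 9.36 and 8.70 (1.13 ± 0.26, adjusted p = 0.00846), or 0.72 with its probe sets averaged. The 2 genes went opposite ways, with the groups apart in both. Lyz2, or lysozyme, fell by 0.37 ± 0.06 (adjusted p = 0.000483). Of the neutrophil markers, 3 of 8 were above the floor, and S100a8 and S100a9 were the called ones. The other tested marker, Csf3r, went the opposite way, by 0.18, and did not pass (adjusted p = 0.2).

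Stromal and vessel genes were higher in part. Fibroblast markers had 4 of 10 higher and none lower, with a median of 0.33. Beside Dpt these were Mfap5, a microfibril protein, at 0.64 ± 0.16 (adjusted p = 0.015), Col1a1, collagen I, and Pdgfra, a growth factor receptor, at 0.41 ± 0.07 (adjusted p = 0.00159). Col1a1 read 10.18, 9.99 and 9.87 against 10.48, 10.57 and 10.49 (0.50 ± 0.09, adjusted p = 0.00218), and without Dox it differed by 0.01 (adjusted p = 0.955). Of 10 endothelial markers, 5 rose and 1 fell, with a median of 0.31. Cdh5, VE-cadherin, read 6.90, 6.87 and 6.79 against 7.61, 7.38 and 7.27 (0.56 ± 0.12, adjusted p = 0.00431), or 0.28 with its probe sets averaged. Vwf, von Willebrand factor, differed by -0.52 ± 0.13 (adjusted p = 0.0126) and so went against the others. Without APC-WT Dox 2 or 3 or APC-KO Dox 2 or 3, 2 endothelial rises were left. Without APC-WT Dox 2 or APC-KO Dox 2 or 3 the Vwf call was lost. Rgs5, a pericyte marker, rose by 0.83 ± 0.18 (adjusted p = 0.00667) and was the called one of 6 smooth muscle and pericyte genes. Markers of cecal epithelium, the host tissue, were above the floor in 2 of 18 and none was called. No eosinophil or erythroid marker reached the floor.

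The extracellular matrix and mesenchymal list had 6 of 36 higher and 4 lower, with a median of 0.12. Col5a1, a fibril-forming collagen, rose by 0.75 ± 0.10 (adjusted p = 0.000146), or 0.31 with all its probe sets averaged, and Snai2, a transcription factor of mesenchymal transition, by 0.65 ± 0.12 (adjusted p = 0.00194). The lower ones included Mmp2 and Mmp13, which degrade matrix, and without APC-WT Dox 1 or 2 the count of lower genes was 2. With probe sets averaged 3 genes of the list rose. Epithelial genes were largely under the floor, 9 of 24 being tested. Cdh1, E-cadherin, read 5.19, 4.89 and 5.31 against 5.55, 6.05 and 5.68, higher with an adjusted p of 0.0197. All 3 APC-WT Dox values and 1 APC-KO Dox value lay under the floor, so no fold is given. The call on Cdh1 was lost without APC-WT Dox 2 or APC-KO Dox 2 (adjusted p up to 0.0954). Pkp2, a desmosomal plakophilin, fell by 0.92 ± 0.17 (adjusted p = 0.00253).

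Of 19 glycolytic genes 8 fell and none rose, with a median of -0.20. Aldoc, an aldolase, read 6.78, 6.87 and 6.91 against 6.46, 5.77 and 6.24 (-0.70 ± 0.15, adjusted p = 0.00518). Pfkl, a phosphofructokinase, read 8.70, 8.64 and 8.67 against 8.38, 7.94 and 8.20 (-0.50 ± 0.11, adjusted p = 0.00492). APC-KO Dox 2 was the lowest tumour for both, and Pfkl differed by 0.00 without Dox (adjusted p = 0.986). The count of falls was 4 without APC-WT Dox 3 or APC-KO Dox 2, and 5 without APC-WT Dox 2, without APC-KO Dox 3 or with no floor. The hypoxia list had 3 of 23 lower and none higher, with a median of -0.21, and the count was 0 without APC-WT Dox 3, 1 without APC-WT Dox 2 or APC-KO Dox 2 or 3, and 6 without APC-WT no Dox 2. Its called members were Ddit4, an inhibitor of mTORC1, at -0.80 ± 0.22 (adjusted p = 0.0205), Ero1a, an oxidase of the endoplasmic reticulum, at -0.57 ± 0.18 (adjusted p = 0.0427), and Ndrg1 at -0.49 ± 0.14 (adjusted p = 0.0263). Without Dox 11 of these 23 genes were higher and none lower, with a median of 0.34. Oxidative phosphorylation had 5 of 28 higher and 2 lower with a median of 0.01, led by Ndufa4 (0.36 ± 0.06, adjusted p = 0.0007); the 2 falls were lost without APC-WT Dox 2 or 3 or APC-KO Dox 3. In cholesterol and fatty acid synthesis 3 of 24 were higher and 2 lower, with a median of -0.02. The 3 rises, Dhcr7 and Scd1 among them, were all lost without APC-WT Dox 2 or 3 or APC-KO Dox 1 or 3. The largest change was in Hsd17b7 (-0.61 ± 0.15, adjusted p = 0.00961).

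Cell cycle genes had 7 of 38 higher and 5 lower, with a median of 0.11. Ccnd2, cyclin D2, read 8.67, 8.94 and 8.89 against 9.78, 9.70 and 9.69 (0.89 ± 0.14, adjusted p = 0.000642). Cdkn1a, the inhibitor p21, read 8.46, 8.44 and 8.47 against 8.10, 7.71 and 7.78 (-0.59 ± 0.10, adjusted p = 0.00112). The groups were apart in both, and Ccnd1 went the opposite way to Ccnd2. Without APC-WT Dox 2, APC-WT Dox 3 or APC-KO Dox 3, 3 of the 5 lower calls were left, and with probe sets averaged 4 of the list rose. Cdkn1a was also the largest of 3 falls among 18 p53 targets, of which 1 was left without APC-WT Dox 2 or APC-KO Dox 1 or 2. In the unfolded protein and integrated stress response, 3 of 24 fell and none rose, led by Ddit3, the factor CHOP (-0.48 ± 0.11). With probe sets averaged the Ddit3 call was lost (-0.27, adjusted p = 0.052), as was that on Dnajc3, a chaperone of the endoplasmic reticulum (adjusted p = 0.0523).

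**Figure D4:**
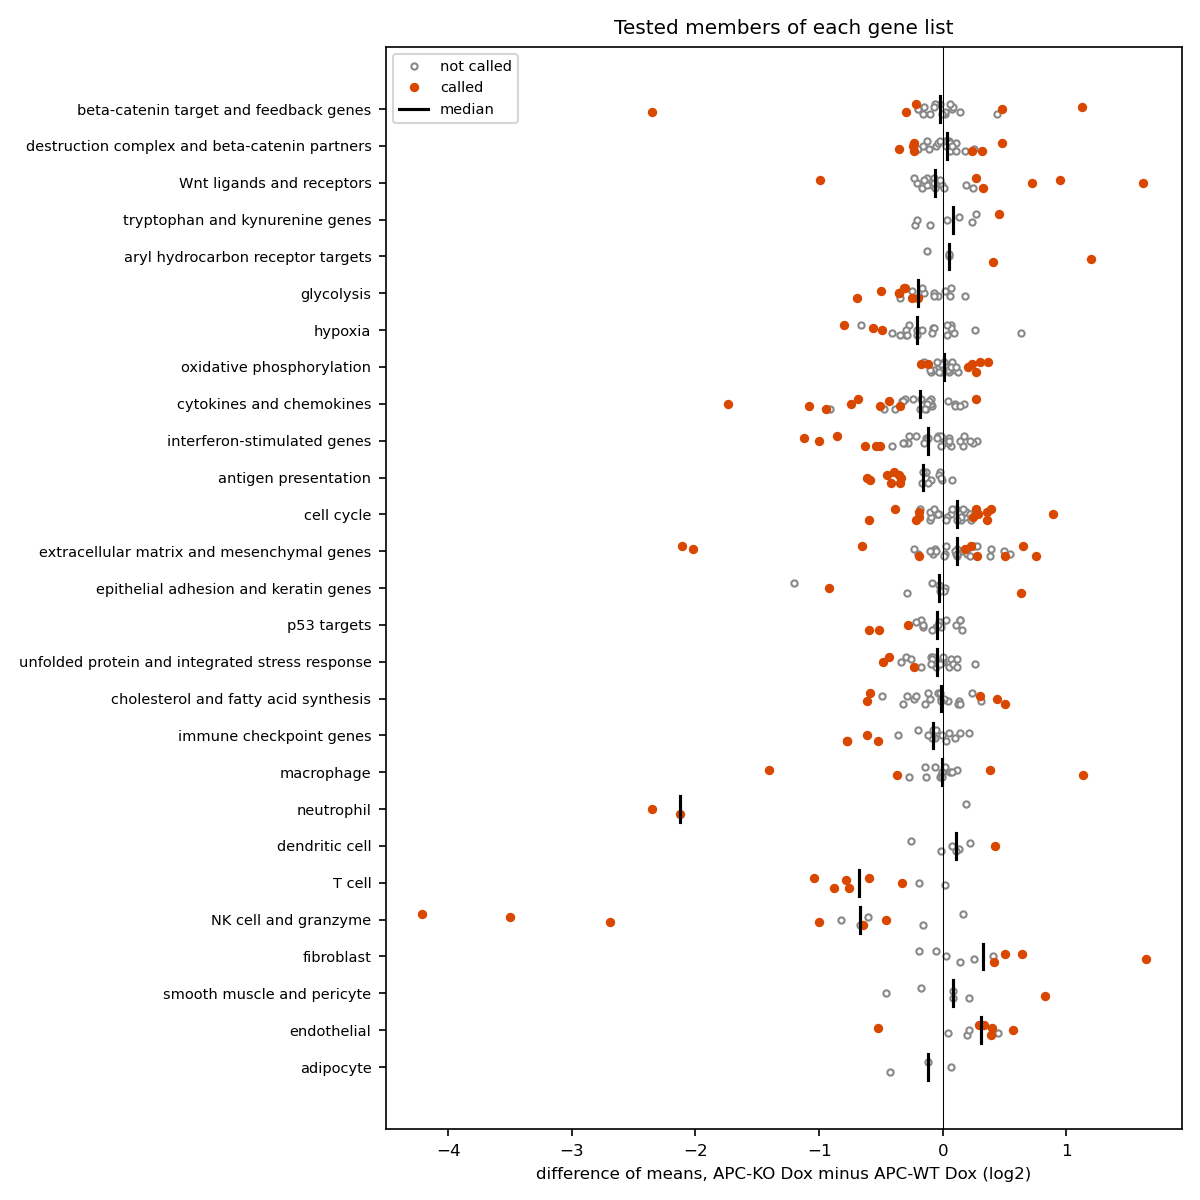
Log2 difference between APC-KO Dox and APC-WT Dox tumours (horizontal axis) for each tested member of each gene list with at least 3 tested members, filled where called, with a bar at the list's median. T cell and natural killer cell members lie mostly left of 0, endothelial and fibroblast members mostly right of it, and the beta-catenin targets lie on both sides.

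Position on the genome also separated the groups. When tested genes were put in RefSeq order and cut into blocks of 25, the last 4 blocks of X, from Sh3bgrl to Erdr1, had the 4 largest medians of all blocks. Of their 102 tested genes 90 rose (88.2%), 1 fell, and 97 lay above 0. The median was 0.77, or 1.70-fold, with quartiles of 0.62 and 0.93. In the other 225 tested genes of X, 13 rose and 16 fell, with a median of -0.01. Each gene centred on its mean over the 12 arrays, the median of the 102 genes was -0.35, -0.41 and -0.38 in APC-WT Dox tumours and 0.33, 0.39 and 0.38 in APC-KO Dox tumours. The shift was thus of like size in each tumour of a group. In tumours without Dox it was -0.25, -0.31 and -0.43 against 0.36, 0.31 and 0.34. There 82 of the 102 genes were higher and the median difference was 0.69.

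Genes of unrelated function rose in this stretch. Beside Armcx1 these were Morc4, a chromatin ATPase (1.64), Cenpi, a kinetochore protein (1.17), Vegfd, a lymphatic growth factor (1.45), Pir, a nuclear iron-binding protein (1.33), and Rnf128, a ubiquitin ligase (1.35). These 5 were chosen after their values were seen. At the near edge Sh3bgrl (0.03), Apool (0.10) and Chm (-0.06) did not pass, Diaph2 rose by 0.25 (adjusted p = 0.0465), and from Pcdh19 (0.85) onward most genes rose. The exceptions included Tspan6 at 0.15 and Btk, a kinase of B cells and myeloid cells, at 0.02, and the 1 fall was Armcx3 at -0.51 ± 0.12 (adjusted p = 0.00931). The stretch held 20 of the 67 genes that rose at least 2-fold and 6.82% of all rises. DNA copy number and clonal origin were not analysed here, and what they contribute cannot be told apart from the labelled genotype.

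**Figure D5:**
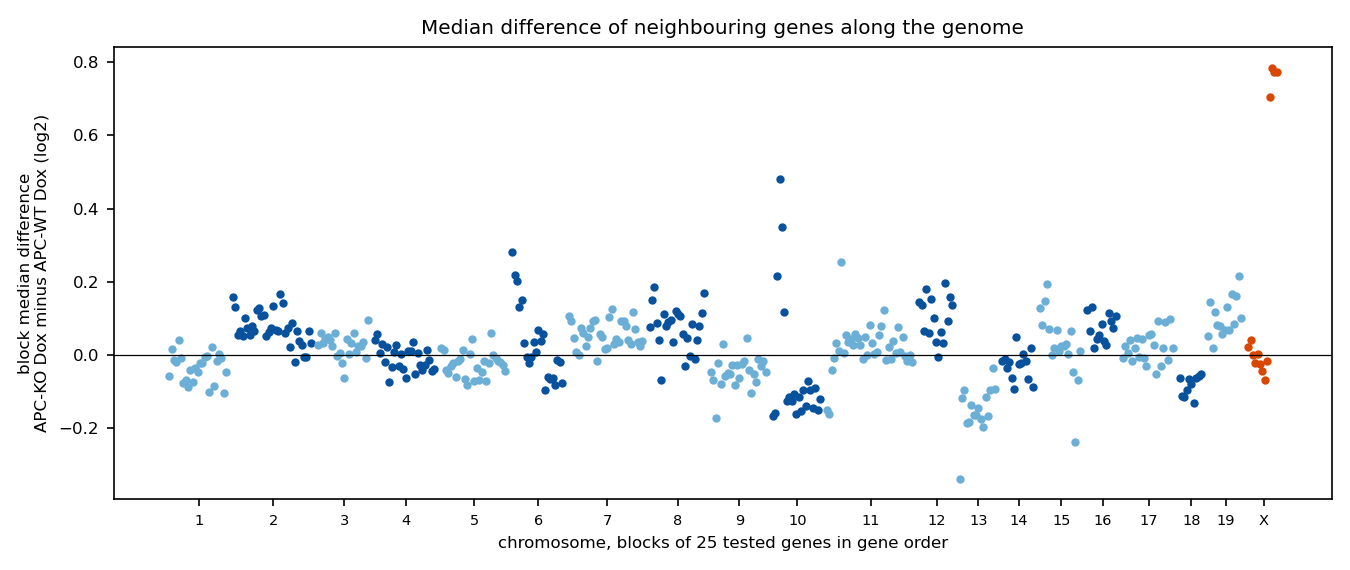
Median log2 difference between APC-KO Dox and APC-WT Dox tumours (vertical axis) of consecutive blocks of 25 tested genes in gene order (horizontal axis, by chromosome). The last 4 blocks of X lie between 0.7 and 0.8, while most blocks lie within 0.2 of 0.

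Smaller shifts of neighbouring genes were found elsewhere with Dox, and for these blocks the values without Dox are not given here. On chromosome 10 the fourth and the fifth block, Hint3 to Cdc40 and Wasf1 to Prep, had medians of 0.48 and 0.35, with 18 and 19 of 25 genes higher, while the chromosome as a whole had a median of -0.09. The first block of chromosome 13, Gdi2 to Lyst, had a median of -0.34 with 17 lower, and the first block of chromosome 6 a median of 0.28 with 17 higher. By chromosome, 27.2% of tested genes on chromosome 13 were lower, and on chromosome 19 25.8% were higher. On chromosome 10 23.6% were lower and 11.3% higher. These shares stand against 7.99% lower and 11.9% higher over all tested genes. Without Dox the medians were -0.09 for chromosome 13, 0.16 for chromosome 19 and -0.11 for chromosome 10. Chromosome 6 had 110 genes higher and 58 lower with Dox, but 76 higher and 103 lower without.

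The neighbours of Apc were compared as well. Nrep, 2 tested genes before it, was far lower, as given above, and Stard4, a sterol carrier 3 genes before it, fell by 0.59 ± 0.13 (adjusted p = 0.00511). The genes next to Apc differed little: Epb41l4a by -0.12 (adjusted p = 0.655), Srp19 by -0.14 (adjusted p = 0.068) and Reep5 by 0.06 (adjusted p = 0.449). Fam13b, 3 tested genes after Apc, fell by 0.30 ± 0.08 (adjusted p = 0.0176). On chromosome 18, which holds Apc, 17.2% of tested genes were lower and 4.4% higher, against 7.99% and 11.9% of all.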

How the data were processed

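The deposited values are log2 expression signals made by the authors, who used MAS5 per the submitters' processing notes; the sources used here give no version and no scaling or log step. Values ran from 1.86 to 14.16, and the log2 scale was inferred from that range. Of 45101 probe sets, 64 were controls, 34945 had 1 gene symbol, 932 several and 9160 none. Where a gene had several probe sets, the one with the highest mean stood for it. Names and gene order came from RefSeq tables (GRCm38.p6), with 34741 probe sets matched. For arrays, the number of samples limits precision.

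A group-means model over all 12 arrays was fitted with limma 3.58.1 in R 4.3.3 (eBayes with a trend, two-sided, Benjamini-Hochberg adjustment over 11070 genes, threshold 0.05). The code was checked on simulated data with independent noise for each gene. Such data leave out shifts shared by the genes of an array, so the check does not cover them. Apc and Tdo2 probe sets were tested in a fit over all probe sets. An exact test on 3 against 3 arrays cannot go below 0.10. Named genes were Apc, Tdo2, the 12 largest rises and falls without overlap, up to 4 members of each list (called and largest first) and the 3 smallest interaction p-values in each direction; others are given as context. Members and lists were chosen with earlier results of these data known, and the rule for fold bounds after the data were seen. Alternatives were no trend, only the groups compared, other floors, the mean of probe sets, quantile normalization, array weights, a replicate block and leaving out each array.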

Additional observations from a re-analysis of the deposited data

How the results depend on the processing

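The genotype comparison with Dox called 2205 genes; it called 3510 with array weights, between 1709 and 2628 under the 7 other alternatives that kept all arrays, and between 1291 and 2354 with 1 array left out. Without Dox the count was 2753 and ran from 2150 to 2739 with 1 array left out. Under the alternatives that kept all arrays it ran from 1898 with only the groups compared to 2945 with quantile normalization. With only the groups compared, 2628 genes were called with Dox, more than the 1898 without, the reverse of the order in the main fit. The interaction called 13 genes with array weights, 0 to 119 with 1 array left out, and 0 otherwise; it could not be fitted with only the groups compared. The cause of these moves was not tested. Under quantile normalization 1242 genes were higher and 1076 lower. Of 3448 values of 177 named genes under alternatives, 3078 kept their side of the threshold, 340 lost the call and 29 gained one. Among genes called in the main fit, Btrc reversed with the mean of probe sets (-0.0294, adjusted p = 0.771). Some genes that were not called changed sign, among them Maoa, from 0.27 to as low as -0.01. The median of the distal X genes was 0.64 with the mean of probe sets.

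Whether replicate numbers pair the tumours was not settled. Deviations of same-numbered tumours correlated at -0.22, -0.02 and -0.21 with Dox and at 0.10, 0.14 and 0.00 without. For differently numbered tumours the correlations ran from -0.08 to 0.25 with Dox and from -0.12 to 0.03 without. Deviations from a mean of 3 arrays depend on one another, so these values cannot decide it. With a replicate block 2159 genes were called with Dox, 2705 without Dox and 0 for the interaction, and 2047 of the 2159 were among the 2205.

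Signal over the floor and 3 arrays a group limit which differences can be called, and fold bounds are lower limits. No tumour with Dox but without the hairpin was analysed here, so Dox and hairpin cannot be told apart.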

Other observations

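Some gene families were picked after their values were seen, because at least 0.5 of their tested members were called in 1 direction. Their counts follow from that choice, and no family was tested as a set. Of all tested genes 11.9% were higher and 7.99% lower. The 3 tested theta-class glutathione transferases, detoxifying enzymes encoded side by side on chromosome 10, all fell in APC-KO Dox tumours. Gstt3 fell by 1.13 ± 0.09, Gstt1 at least 1.63-fold and Gstt2 at least 1.62-fold. Without Dox Gstt3 differed by -0.94, and Gstt1 and Gstt2 were at least 1.99-fold and 1.84-fold lower. Gsta4, an alpha-class transferase, rose by 1.54. Of the 3 Gadd45 stress genes, each fell, by 0.51 (Gadd45a), 0.42 (Gadd45b) and 0.58 (Gadd45g). The Gadd45a call was lost without APC-WT Dox 1 or 2 or APC-KO Dox 1 or 2 (adjusted p up to 0.126). Of 8 subunit genes of the chaperonin CCT, 4 rose and none fell, with a median of 0.16.

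A few more genes are named after their values were seen. Mt2 and Mt1, the metallothioneins, differed by -1.60 and -1.09 with Dox and by -0.20 and 0.14 without, and the heat-shock gene Hspa1b by -1.60 and -0.34. No interaction was called for any of them. Ahnak, a giant scaffold protein, fell by 1.30 ± 0.05, and Esr1, the oestrogen receptor, by 1.16, with -1.12 and -1.17 without Dox.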
